A study of Mus musculus with 11 samples.

Results

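The regions described here are the 943 windows of 100 kb on mouse chromosomes 1 to 19 that held more MacroH2A2 in embryonic stem (ES) cells than in mouse embryonic fibroblasts (MEFs). They were chosen by measured values: among 24731 windows, 23444 lay outside the top 1% by anti-HA signal without Dox and had at least 50 interval midpoints in both anti-MacroH2A2 libraries, and of these the 943 with at least 1.5 times as many midpoints per 1000000 (rpm) in ES cells as in MEFs were kept. Since rpm is a share of a library, more MacroH2A2 means here and below a larger share of the signal, not a larger amount. The authors report higher MacroH2A2 levels in MEFs than in ES cells. They consider an apparent loss in MEFs over gene-rich regions likely to reflect maintained levels, which was not tested here. The share of all eligible regions past that fold was 4.02%, a number the rule itself fixes, and the anti-MacroH2A2 ratio is therefore given below only as a description. Everything else, namely induced HA-tagged MacroH2A2 and H3.3, base composition, genes and promoters, was not used to choose them.

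The 11 ChIP-Seq libraries came from 129 X C57bl/6 mouse cells, with 1 library per condition. Endogenous MacroH2A2 was mapped with an antibody to the protein in cells labelled as KH2 parental ES cells and as wild type MEFs, each library combining 2 replicates according to its label. Other sources for the study name cells with the HA-MacroH2A2 construct for these libraries, so that their genotype and Dox state are uncertain. Induced MacroH2A2 was mapped through its HA tag in KH2 ES cells carrying a Dox-inducible HA-MacroH2A2 at Col1a1 with M2rtTA at ROSA26, without Dox and after 3, 6 and 12 h of Dox at 2 µg/mL, and in MEFs of the same construct after 3, 6 and 12 h. Those MEFs were grown from chimeric embryos made with the ES cells and were selected with puromycin against host cells. HA-tagged H3.3 was mapped in a corresponding ES cell line after 3 and 6 h of Dox. The ES cells were grown on feeder MEFs that were depleted by pre-plating, and since the files hold DNA only, neither cell type was checked against marker expression. No library of unprecipitated DNA and no MEF anti-HA library without Dox was analysed here, so that a difference in DNA copy number or in mapping between the cell sources cannot be told apart from a difference in MacroH2A2. With 1 library per condition no comparison has a replicate check, and no p-value is given. The intervals of ratios cover counting error only. Those of shares are binomial over regions, which are not independent of each other, and do not measure a spread between libraries.

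MacroH2A2 is a variant of histone H2A with a large globular macro domain on its C-terminal side. It takes the place of H2A in nucleosomes, is known from broad domains and from the inactive X chromosome of differentiated cells, and has been described as a barrier to reprogramming of somatic nuclei. H3.3 is the H3 variant deposited outside replication, and it marks active genes, where nucleosomes are exchanged quickly. In cells where a tagged histone has only just been switched on, its early signal follows how fast a site takes up new protein, while later signal approaches the standing distribution.

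Promoters from these regions are shown first, because most of the regions held at least 1 protein-coding transcription start site (TSS). Each run is the 250 bases before the annotated TSS, read 5′ to 3′ on the strand of the gene from the mm9 (NCBIM37) genome, with CpG dinucleotides in capitals. Smarca4 (chr9:21420363-21420612, plus strand) and Ctcf (chr8:108160218-108160467, plus strand) lie in the longest runs of selected regions, Nacc1 (chr8:87211762-87212011, minus strand) and Zfp808 (chr13:62231026-62231275, plus strand) are in regions with the highest ratios, and Tubb3 (chr8:125935074-125935323, plus strand) and Tagln (chr9:45744142-45744391, minus strand) are lineage genes.
Smarca4: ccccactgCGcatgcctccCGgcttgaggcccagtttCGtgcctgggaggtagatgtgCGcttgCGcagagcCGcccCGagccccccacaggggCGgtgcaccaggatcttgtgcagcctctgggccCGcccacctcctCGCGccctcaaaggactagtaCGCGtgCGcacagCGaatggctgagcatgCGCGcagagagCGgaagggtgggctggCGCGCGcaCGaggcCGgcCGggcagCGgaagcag
Ctcf: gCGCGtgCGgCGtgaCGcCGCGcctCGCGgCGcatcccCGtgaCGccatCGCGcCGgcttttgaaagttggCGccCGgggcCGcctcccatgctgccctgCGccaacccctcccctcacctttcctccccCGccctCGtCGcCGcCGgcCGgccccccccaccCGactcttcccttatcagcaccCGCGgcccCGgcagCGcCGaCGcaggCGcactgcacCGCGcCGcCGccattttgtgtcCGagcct
Nacc1: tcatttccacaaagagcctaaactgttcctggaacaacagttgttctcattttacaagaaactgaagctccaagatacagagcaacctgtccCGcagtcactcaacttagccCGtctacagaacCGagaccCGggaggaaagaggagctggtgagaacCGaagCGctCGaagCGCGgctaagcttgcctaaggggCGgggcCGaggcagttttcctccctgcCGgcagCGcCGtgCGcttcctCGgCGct
Zfp808: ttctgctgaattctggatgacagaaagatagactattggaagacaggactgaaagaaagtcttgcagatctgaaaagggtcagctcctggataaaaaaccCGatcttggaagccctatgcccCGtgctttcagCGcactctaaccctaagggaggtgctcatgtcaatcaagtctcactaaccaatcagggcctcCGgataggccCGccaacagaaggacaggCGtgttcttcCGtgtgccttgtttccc
Tubb3: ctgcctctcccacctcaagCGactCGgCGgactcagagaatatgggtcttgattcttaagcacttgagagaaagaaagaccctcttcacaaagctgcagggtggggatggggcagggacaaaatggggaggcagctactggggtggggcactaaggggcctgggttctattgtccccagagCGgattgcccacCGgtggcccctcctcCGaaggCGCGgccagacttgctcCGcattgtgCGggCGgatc
Tagln: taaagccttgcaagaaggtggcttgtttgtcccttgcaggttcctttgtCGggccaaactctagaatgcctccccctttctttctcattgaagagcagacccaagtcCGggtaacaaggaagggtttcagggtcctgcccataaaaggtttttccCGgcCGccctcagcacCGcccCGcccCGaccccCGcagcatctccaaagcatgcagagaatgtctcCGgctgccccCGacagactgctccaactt
The CpG count was 38 for Ctcf, 25 for Smarca4, 17 for Nacc1, 11 for Tubb3, 10 for Tagln and 7 for Zfp808. All but Zfp808 held at least 1 copy of the GC box letters GGGCGG on either strand, and none of the 6 held the letters TATAAA. Over the 2614 protein-coding promoters of the selected regions the median was 13 CpGs per 250 bases (quartiles 6 and 21), against 9 (3 and 18) over all 20361 promoters in eligible regions and 4 over the 175 promoters in regions with at least 1.5 times more MacroH2A2 in MEFs. GGGCGG occurred in 51.6% of the promoters of the selected regions and in 40.3% of all promoters. The ETS-type letters CCGGAAG occurred in 13.1% and 8.36%. The TATA box letters TATAAA were rarer than over all promoters, 6.08% against 12.3%, whereas the letters CCAAT occurred at like shares of 33.8% and 34.5%. These are matches of letters on both strands in a fixed window, not binding sites.

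Depth ranged from 6488112 intervals for HA-H3.3 at 3 h to 20541627 for HA-MacroH2A2 in MEFs at 12 h, and the 2 libraries behind the rule held 8545703 intervals (ES cells) and 14899508 intervals (MEFs). A selected region held a median of 541 anti-MacroH2A2 midpoints in ES cells and 573 in MEFs. Its ES over MEF ratio ranged from 1.50 to 2.27 with a median of 1.60, and 17 regions reached a factor of 2. The exact 95% counting interval of a single region ran, at the median, from 1.41 to 1.81. It lay above 1 in all 943 regions, but above 1.5 in only 246, so that counting alone leaves many regions close to the limit. The 3 regions just inside the limit held 154, 499 and 875 midpoints in ES cells against 179, 580 and 1017 in MEFs. The 3 just outside held 431, 357 and 541 against 501, 415 and 629, and all 6 ratios round to 1.50.

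Induced HA-MacroH2A2, measured in other libraries with another antibody, was also higher in ES cells than in MEFs in nearly every selected region. The ratio of rpm in ES cells over MEFs was above 1 in 919 of the 943 regions after 3 h of Dox, in 931 after 6 h and in 932 after 12 h, against 47.2%, 52.9% and 53% of all eligible regions. The median log2 ratio was 0.88 (quartiles 0.53 and 1.18) at 3 h, 0.52 (0.38 and 0.65) at 6 h and 0.52 (0.36 and 0.63) at 12 h. Over all eligible regions the medians were -0.04, 0.04 and 0.04.
At 3 h, 676 selected regions (71.7%, exact binomial interval 68.7% to 74.5%) reached 1.5 fold, against 16.3% of all eligible regions. At 6 h, 365 (38.7%) did so against 8.62%, and at 12 h, 329 (34.9%, 31.8% to 38.0%) against 7.93%. The selected regions thus passed this fold more often than the background at each time, and the share was highest at 3 h. At all of 3, 6 and 12 h together 208 selected regions (22.1%) reached 1.5 fold, against 3.24% of all eligible regions. A factor of 2 was reached by 376 selected regions (39.9%) at 3 h, 8 (0.848%) at 6 h and 11 (1.17%) at 12 h, against 7.42%, 0.375% and 0.631% of all eligible regions, so that at this fold the shares at 6 and 12 h were small in both. No selected region had 1.5 times more HA-MacroH2A2 in MEFs at any of the 3 times, against 19.1%, 12.8% and 13.2% of all eligible regions at 3, 6 and 12 h.

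**Figure D1:**
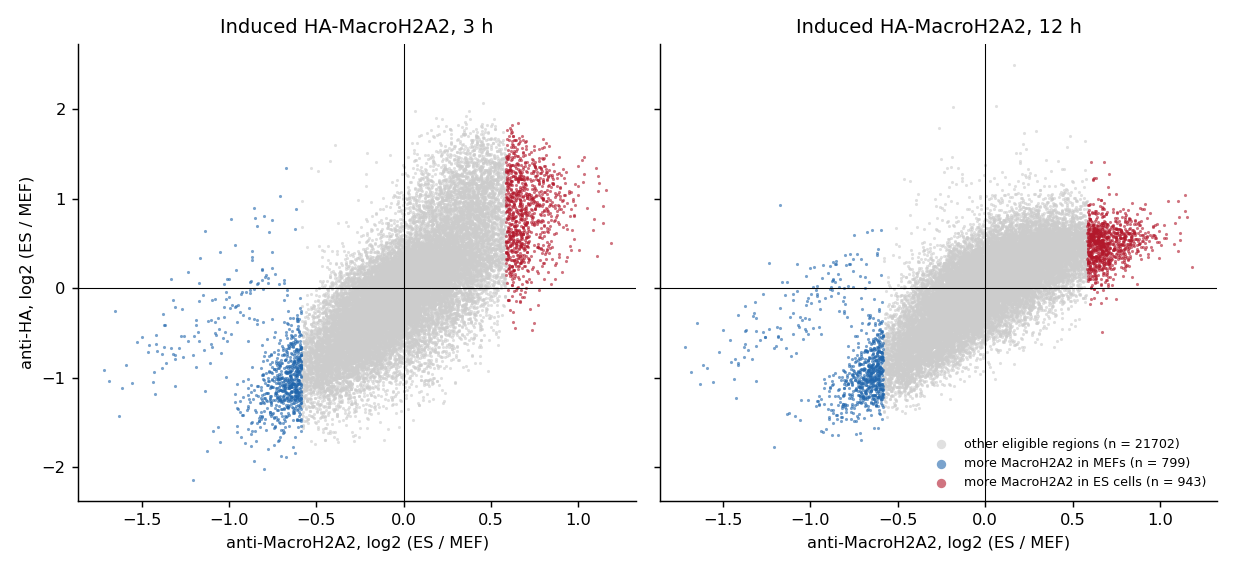
Each point is a 100 kb region. The horizontal axis is log2 of the anti-MacroH2A2 ratio of ES cells over MEFs, which the rule used, and the vertical axis is log2 of the same ratio for induced HA-MacroH2A2 after 3 h (left) and 12 h (right). The 943 selected regions (red) sit almost wholly above 0, with a wider spread at 3 h (median 0.88) than at 12 h (median 0.52).

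Across the 23444 eligible regions the anti-MacroH2A2 log2 ratio and the HA-MacroH2A2 log2 ratio had Pearson's r = 0.736 at 3 h and 0.742 at 12 h. These values describe regions of the same libraries, which share depth and base composition and are not independent. The anti-MacroH2A2 ratio also moved with GC content (r = 0.451), which the HA-MacroH2A2 ratio did much less (r = 0.073 at 3 h and 0.142 at 12 h).

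The levels in the single libraries were as follows. The selected regions had a median of 63.3 rpm of anti-MacroH2A2 in ES cells, above the 37.6 rpm of all eligible regions, while in MEFs they stood at 38.5 rpm against 38.3, which is the ordinary level. Induced HA-MacroH2A2 had the same form, with 71.2, 56.9 and 53.6 rpm in ES cells at 3, 6 and 12 h against 31.9, 34.6 and 34.6 over all regions, and 37.1, 39.3 and 37.5 rpm in MEFs against 35.0, 35.6 and 35.8. By these medians HA-MacroH2A2, which the rule did not use, was high in ES cells and near the ordinary level in MEFs, but in 73 of the regions, those with HA-H3.3 at 6 h below the median region, the medians in MEFs were lower, at 22.9, 23.4 and 21.9 rpm. Without Dox the anti-HA antibody gave 43.9 rpm against 37.4, a log2 level of 0.23, so that part of the height in ES cells was present without Dox, and its part in the results was not tested.
HA-H3.3, which was mapped in ES cells only, was also high. It stood at 70.5 rpm at 3 h and 86.6 rpm at 6 h in the selected regions, against 35.8 and 29.1 rpm over all regions, which are log2 levels of 0.98 and 1.57. A level of at least 1.5 times the median region was reached by 739 selected regions (78.4%) at 3 h and 820 (87.0%) at 6 h, against 17.7% and 30.1% of all eligible regions. Dividing each region by its signal without Dox, which came from the HA-MacroH2A2 line, lowered the 2 medians to 0.70 and 1.30. No HA-H3.3 library without Dox was analysed here, and the part of background in the HA-H3.3 level was not tested.

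**Figure D2:**
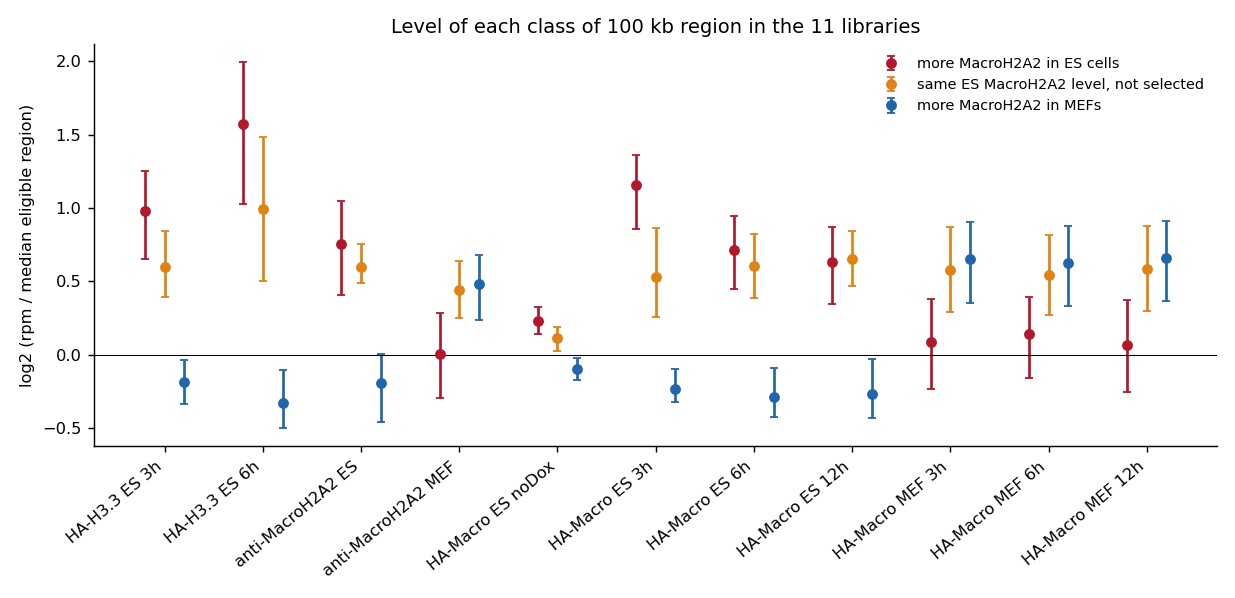
Points are medians and bars the quartiles, over regions, of log2 rpm relative to the median eligible region in each of the 11 libraries. Selected regions (red) are high in the ES libraries and near 0 in the MEF libraries, at 0.01 for anti-MacroH2A2. Regions of like ES level that were not selected (orange) are high in both cell types, and regions with more MacroH2A2 in MEFs (blue) have the opposite order.

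Many regions with a like anti-MacroH2A2 level in ES cells were not selected. The 3378 regions that were not selected but whose anti-MacroH2A2 level in ES cells fell between the quartiles of the selected ones (49.8 to 77.7 rpm) had 52.0 rpm in MEFs, a height that follows from the rule, and a median GC content of 46.8%, close to the 48.2% of the selected regions. Their median anti-MacroH2A2 level in ES cells was 56.8 rpm against 63.3 rpm in the selected regions, so that the levels were like but not equal. Their HA-H3.3 log2 level at 6 h was 1.00 against 1.57. Their HA-MacroH2A2 in ES cells stood at 46.1 rpm at 3 h and rose to 54.5 rpm at 12 h, whereas the selected regions went the other way, from 71.2 to 53.6 rpm. By 12 h both classes thus had a like level in ES cells. HA-MacroH2A2 in MEFs at 12 h, which the rule did not use, was 53.7 rpm in these regions and 37.5 rpm in the selected ones.
The ratio of HA-MacroH2A2 at 3 h over 12 h within ES cells put this into 1 number. Its median log2 was 0.37 (quartiles 0.05 and 0.63) in the selected regions, -0.27 in the regions of like ES level and -0.04 over all eligible regions. It reached 1.5 fold in 280 selected regions (29.7%), against 7.16% of all eligible regions. In MEFs the same ratio was -0.01 (-0.10 and 0.06) in the selected regions and -0.01 over all regions. No selected region reached 1.5 fold in MEFs, but neither did nearly any other (0.00853% of all eligible regions), so that this count says nothing about the selected ones. By the medians, early HA-MacroH2A2 was relatively high in these regions in ES cells and at the ordinary level in MEFs. In ES cells the median eligible region itself stood lower at 3 h (31.9 rpm) than at 12 h (34.6 rpm). With each library divided by its median eligible region the rule selected 1155 regions, and their median was 0.47.

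Base composition and gene number moved with membership. The median GC content was 48.2% (quartiles 45.4% and 50.2%), against 41.4% over all eligible regions and 40.2% over the 799 regions with more MacroH2A2 in MEFs, and CpG dinucleotides numbered 13.9, 7.80 and 6.44 per kb. A protein-coding TSS was present in 759 selected regions, 80.5% (77.8% to 83.0%), against 42.9% and 16.9%. The 3378 regions of like ES level that were not selected were closer, with a protein-coding TSS in 69.2% and 12.1 CpG dinucleotides per kb. The mean number of protein-coding TSSs per region was 2.77 in the selected regions, against 0.868 over all eligible regions, 0.219 in those with more MacroH2A2 in MEFs and 1.52 in those of like ES level.
The share of regions that were selected rose with each step of GC content above 38%, from 2 of 4192 regions at 38% or less to 232 of 1191 (19.5%) between 48% and 50% and 59 of 126 (46.8%) above 52%. It also rose with gene number, from 184 of 13385 (1.37%) without a protein-coding TSS to 180 of 645 (27.9%) with 5 to 8 and 27 of 58 (46.6%) with more than 8. The parts of GC content and of gene number were not separated, and neither was tested as a cause.

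**Figure D3:**
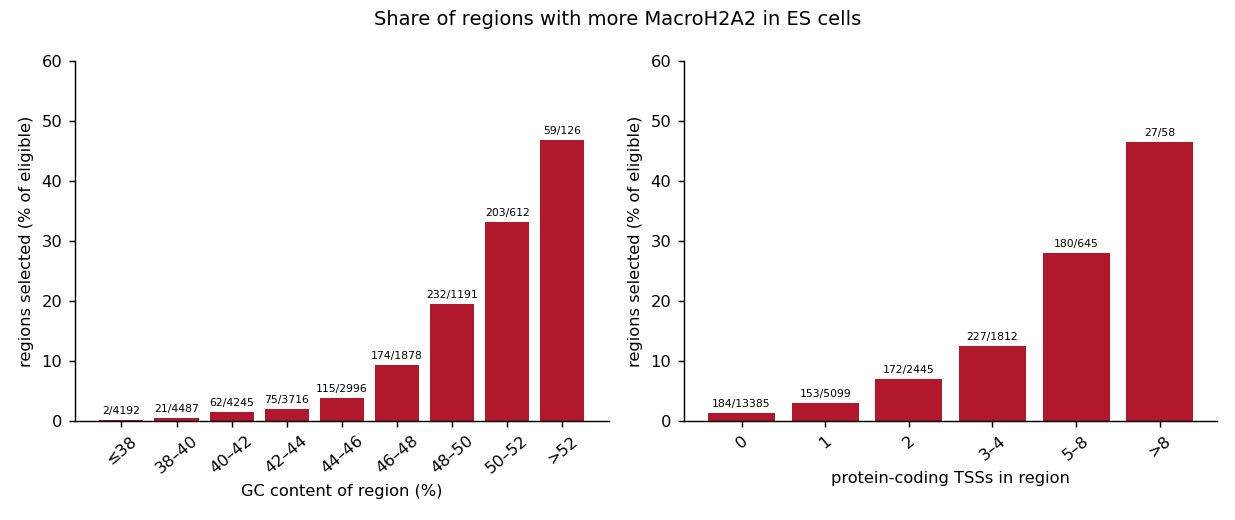
Bars give the share of eligible regions that were selected, by GC content (left) and by the number of protein-coding TSSs (right), with the counts above each bar. The share runs from 1.37% in regions without a protein-coding TSS to 46.6% in those with more than 8.

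Within a class of like GC content the selected regions stood above the others in HA-MacroH2A2. Since they were picked for an antibody ratio that went with the HA-MacroH2A2 ratio, this can follow from the choice itself. Between 44% and 46% GC the median log2 ES over MEF ratio at 12 h was 0.59 in the 115 selected regions and 0.08 in the rest, and between 50% and 52% it was 0.38 in 203 selected regions and -0.04 in the rest. The HA-H3.3 level at 6 h differed in the same way, with 1.22 against 0.67 in the first class and 1.93 against 1.49 in the second. The anti-HA level without Dox also differed, by less, with 0.14 against 0.03 between 44% and 46% GC, 0.32 against 0.26 between 50% and 52%, and 0.40 against 0.37 above 52%. Among the regions with 5 to 8 protein-coding TSSs the HA-MacroH2A2 ratio at 3 h was 0.93 in the 180 selected and 0.30 in the other regions, and the log2 of 3 h over 12 h in ES cells was 0.40 and 0.04.
Among the selected regions above 38% GC, the share past the fold in HA-MacroH2A2 at 3 h was highest at middle GC content and lower on both sides. At 38% or less it was 100%, but of only 2 regions. The ES over MEF ratio at 3 h reached 1.5 fold in 57.1% of the 21 selected regions between 38% and 40% GC, in 76.0% between 42% and 44%, in 86.1% between 44% and 46%, in 77.2% between 48% and 50%, and in 42.4% above 52%. The regions that were not selected had a like course at lower shares, 10.2%, 19.6%, 21.0%, 12.5% and 5.97%. At 12 h the share in the selected regions was highest between 40% and 42% GC, at 56.5%.

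At the scale of single features, the surplus in ES cells lay at TSSs and within genes more than between genes. In the selected regions, 5.01% of the bases lay within 1 kb of a protein-coding TSS, 70.3% in the rest of protein-coding genes and 24.7% between genes, against 1.54%, 38.2% and 60.2% in the regions selected in neither direction. Anti-MacroH2A2 in ES cells was 102 rpm per 100 kb near TSSs, 67.1 in gene bodies and 46.9 between genes. In MEFs the 3 values were 51.1, 39.8 and 34.1, so that the ES over MEF ratio fell from 2.00 to 1.68 and 1.37.
HA-MacroH2A2, which the rule did not use, had the same order at 3 h. Its ES over MEF ratio was 2.11 (2.08 to 2.14) near TSSs, 1.99 (1.98 to 2.00) in gene bodies and 1.22 (1.21 to 1.23) between genes. At 12 h the 3 ratios were nearly level at 1.45, 1.42 and 1.32. The order was not particular to the selected regions: in the regions selected in neither direction the ratio of HA-MacroH2A2 was 1.43, 1.26 and 0.797 at 3 h and 1.10, 1.06 and 0.919 at 12 h, and that of anti-MacroH2A2 was 1.50, 1.11 and 0.921. In ES cells the signal near TSSs went from 105 rpm per 100 kb at 3 h to 80.5 at 6 h and 66.0 at 12 h, the signal in gene bodies from 74.3 to 56.7 and 53.5, and the signal between genes from 48.7 to 54.2 and 55.0. In the selected regions of ES cells, the early signal was thus denser in genes than between them. By 12 h gene bodies and the space between genes were at a like height. In the same places MEFs had 49.8, 37.4 and 39.8 at 3 h and 45.4, 37.7 and 41.7 at 12 h.

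The mean profile over the 2614 TSSs in the selected regions rose to a peak just downstream of the TSS. For anti-MacroH2A2 in ES cells the highest 100 bp bin, centred 250 bp downstream, held 176 midpoints per TSS for each 1000000000 midpoints of the library, against 64.1 on average from 4 to 2 kb upstream. In MEFs the highest bin held 75.0 and the upstream part 43.0. The mean within 600 bp over that upstream mean was 1.89 in ES cells and 1.30 in MEFs at these TSSs, and 2.01 and 1.30 at the other 17747 TSSs. The peak over its surroundings was therefore no taller at the selected TSSs. The height of the profile itself in these windows follows from the rule.
HA-MacroH2A2 in ES cells had a ratio of centre over upstream of 1.66 at 3 h, 1.38 at 6 h and 1.15 at 12 h at the selected TSSs, with 1.30 without Dox. In MEFs it was 1.19, 1.11 and 0.990. The tagged protein at 12 h thus stood no higher over its surroundings at these TSSs than the signal without Dox did. HA-H3.3 gave 2.24 at 3 h and 2.55 at 6 h. The other 17747 TSSs had like or higher values, 1.77, 1.34 and 1.12 for HA-MacroH2A2 in ES cells and 2.45 and 3.08 for HA-H3.3.

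**Figure D4:**
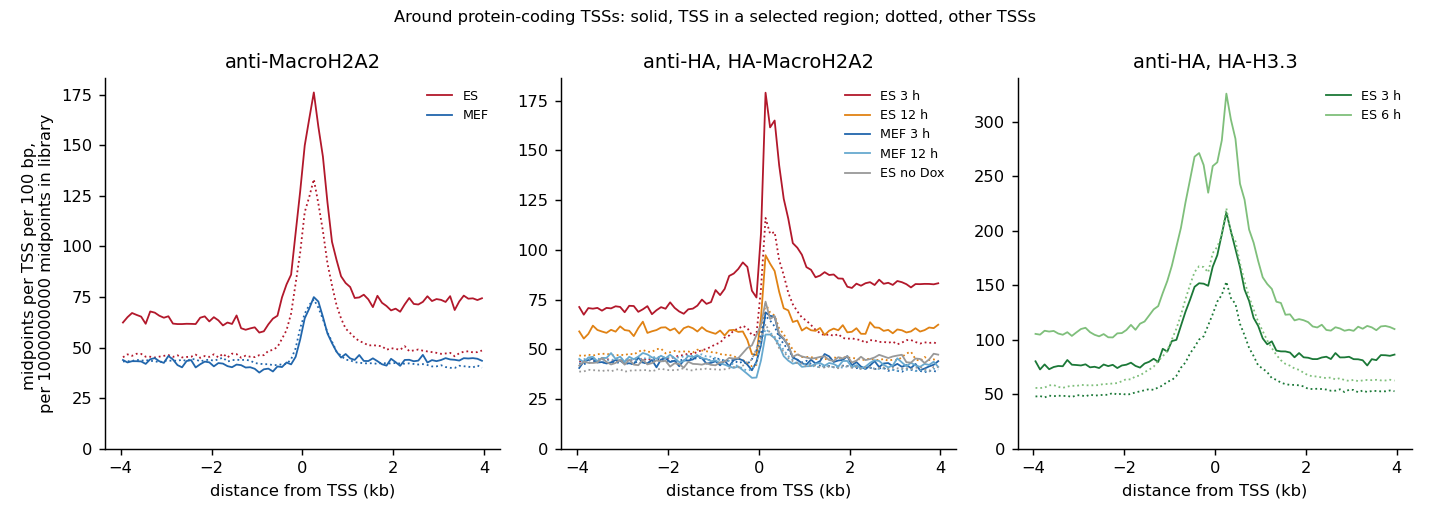
Mean number of interval midpoints per TSS in 100 bp bins, for each 1000000000 midpoints of the library, against the distance from the TSS in kb with transcription to the right. Solid lines are the 2614 protein-coding TSSs in selected regions and dotted lines the other 17747. The solid ES lines lie above the dotted ones over the whole window, whereas the MEF lines lie close together.

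At the single promoters printed above, the counts within 600 bp of the TSS were small. Ctcf, which encodes the insulator protein CTCF, had 17 anti-MacroH2A2 midpoints in ES cells and 11 in MEFs, and 46, 31 and 16 HA-MacroH2A2 midpoints in ES cells at 3, 6 and 12 h against 9, 4 and 9 in MEFs. Scaled to depth, its HA-MacroH2A2 ratio was 3.31 (1.60 to 7.69) at 3 h, 4.77 (1.69 to 18.6) at 6 h and 1.94 (0.807 to 4.98) at 12 h, of which the first and second lay above 1 beyond counting error. Nacc1, which encodes a BTB domain protein of transcriptional repressor complexes, had 57, 24 and 24 midpoints in ES cells and 8, 11 and 8 in MEFs, which gave ratios of 4.61 (2.19 to 11.2) at 3 h, 1.34 (0.633 to 3.04) at 6 h and 3.27 (1.42 to 8.43) at 12 h, so that the middle one was not detectably different from 1. Tagln, which encodes the smooth muscle protein transgelin, had 17, 12 and 12 in ES cells and 6, 2 and 14 in MEFs. Its ratios were 1.83 (0.690 to 5.68) at 3 h, 3.69 (0.822 to 34.0) at 6 h and 0.935 (0.395 to 2.18) at 12 h. At this depth none of them was detectably different from 1. Zfp808, a KRAB zinc finger gene, had 19, 10 and 11 in ES cells and 0, 2 and 4 in MEFs. For Smarca4 the ratio was 2.72 (0.998 to 9.23) at 3 h, 4.10 (1.22 to 21.6) at 6 h and 1.40 (0.465 to 4.43) at 12 h, and for Tubb3 it was 1.88 (0.925 to 4.14), 1.19 (0.632 to 2.33) and 1.32 (0.688 to 2.56), so that of these 6 ratios the one of Smarca4 at 6 h alone lay above 1 beyond counting error.

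The selected regions formed 691 separate runs of adjacent windows, 523 of them single. There were 116 runs of 2, 30 of 3, 12 of 4 and 10 of 5 regions, and 44.5% of the selected regions touched another. The ES over MEF ratio of HA-MacroH2A2 was lower in the flanking windows, of which all eligible ones were kept. Of the windows 100 kb to the left and right, 27.9% on each side were selected themselves. Their median log2 ratio was 0.54 and 0.50 at 3 h, and 0.37 and 0.36 at 12 h. At 500 kb it was 0.27 and 0.27 at 3 h and 0.28 and 0.28 at 12 h, still above the -0.04 and 0.04 of all eligible regions. The HA-H3.3 level at 6 h went from 1.57 in the regions to 1.39 and 1.40 at 100 kb and 1.09 and 1.05 at 500 kb. Since the regions were picked for a high antibody ratio, which went with the HA-MacroH2A2 ratio, a lower value beside them can follow from the choice itself.

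**Figure D5:**
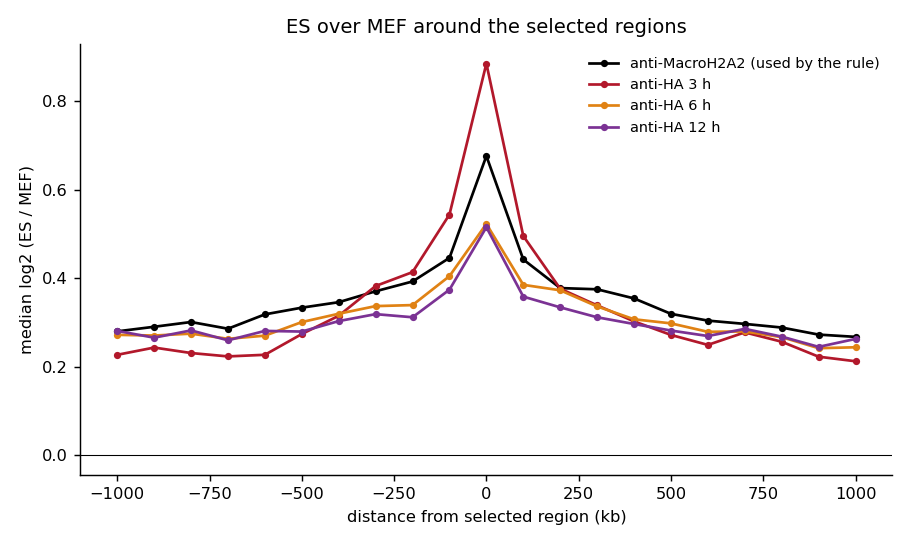
Median log2 ES over MEF ratio against the distance in kb from the selected regions, which lie at 0. All eligible flanking windows are included. The anti-HA curves at 3, 6 and 12 h go from 0.88, 0.52 and 0.52 at the regions to 0.54, 0.40 and 0.37 in the window 100 kb to the left and stay above 0 as far as plotted.

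The 10 longest runs, each of 500 kb, held 6 to 50 protein-coding genes. HA-MacroH2A2 at 3 h was higher in ES cells in all 10, by 1.63 to 2.33 fold, and in 7 of them all 5 regions reached 1.5 fold. At 12 h the range was 1.24 to 1.62 fold. HA-H3.3 at 6 h stood at 2.20 to 4.62 times the median region.
The run with the most H3.3 was chr9:21200001-21700000, with Smarca4 (the ATPase of the BAF remodelling complex), Carm1 (an arginine methyltransferase) and Dnm2 (dynamin 2). Its HA-MacroH2A2 ratio was 2.28 at 3 h, 1.59 at 6 h and 1.50 at 12 h. The window with the Smarca4 TSS had 54.4 rpm of anti-MacroH2A2 in ES cells against 32.4 in MEFs, and 81.8, 49.8 and 48.8 rpm of HA-MacroH2A2 in ES cells at 3, 6 and 12 h against 28.0, 32.4 and 30.7 in MEFs. Each ES value was above each MEF value, and the ES value at 3 h stood above the later ones.
The run at chr8:108000001-108500000 held 26 genes, among them Ctcf, Acd (a telomere protein), Edc4 (mRNA decapping) and Psmb10 (an immunoproteasome subunit), and was the only one of the 10 in which all 5 regions reached 1.5 fold at 12 h. Its ratio was 2.13 at 3 h, 1.67 at 6 h and 1.62 at 12 h. Over all eligible regions of chromosome 8 the median log2 ES over MEF ratio was -0.07 at 3 h and 0.11 at 6 and 12 h. Higher medians at 6 and 12 h were found on chromosome 7 (0.16 and 0.20) and chromosome 17 (0.16 and 0.18), which already stood at 0.16 and 0.09 at 3 h.
The run at chr7:134600001-135100000 held 24 genes, with Srcap (the ATPase that loads H2A.Z), Setd1a (an H3K4 methyltransferase) and Myst1 (an H4K16 acetyltransferase), and had ratios of 2.11, 1.52 and 1.48. The run at chr3:88300001-88800000 held Lmna (lamins A and C) and Ash1l (an H3K36 methyltransferase), with 2.26, 1.55 and 1.53. The run at chr2:29500001-30000000 held Set (a histone chaperone), Gle1 (mRNA export) and Odf2 (a centriole protein), with the highest ratio at 3 h, 2.33, and 1.51 at 12 h. Those 3 runs had the shared course of a high ratio at 3 h and a lower one at 12 h.
The most gene-dense run was chr17:34900001-35400000, which covers the class III part of the major histocompatibility complex with 50 protein-coding genes, including Ehmt2 (the H3K9 methyltransferase G9a), the heat shock genes Hspa1a and Hspa1b, the complement genes C2 and Cfb, and the cytokine genes Tnf, Lta and Ltb. Its HA-MacroH2A2 ratios were the lowest at 3 and 12 h of the 10, at 1.63, 1.31 and 1.24, and no region of it reached 1.5 fold at 6 or 12 h. The run at chr12:109700001-110200000, with Yy1 (a zinc finger transcription factor), Wars (a tRNA synthetase) and Evl (an actin regulator), also had low ratios of 1.72, 1.23 and 1.32, and the least H3.3, at 2.20 times the median region.
The other 3 were chr4:148300001-148800000 with Kif1b (a kinesin) and Pex14 (peroxisome import), chr5:134600001-135100000 with the transcription factor genes Gtf2i and Gtf2ird1, and chr19:46300001-46800000 with Nfkb2 (NF-κB p100) and Sufu (an inhibitor of Hedgehog signalling). They had ratios of 2.19, 1.88 and 1.83 at 3 h and 1.35, 1.57 and 1.34 at 12 h.

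The highest anti-MacroH2A2 ratios among regions with at least 50 kb of called bases and more than 500 midpoints in ES cells were at Tnrc18 and Nacc1. The Tnrc18 window (chr5:143500001-143600000) had 84.0 rpm in ES cells and 37.7 in MEFs, a ratio of 2.23 (1.99 to 2.49), and its HA-MacroH2A2 ratios were 2.14, 1.82 and 1.74. The Nacc1 window (chr8:87200001-87300000), which also holds Trmt1 (a tRNA methyltransferase) and Lyl1 (a haematopoietic transcription factor), had 89.2 and 40.4 rpm, a ratio of 2.21 (1.98 to 2.46). Its HA-MacroH2A2 stood at 79.1, 77.8 and 79.3 rpm in ES cells and 41.8, 41.3 and 38.6 rpm in MEFs, so that its ratio of 1.89 at 3 h and 2.06 at 12 h, unlike that of the median selected region, did not drop with time. The 10 highest ratios also included windows with Crat and Ppp2r4 on chromosome 2 (2.16), with Kcnab2 and Nphp4 on chromosome 4 (2.15) and with the nuclear receptor genes Thra and Nr1d1 on chromosome 11 (2.12). The top ratio of all, 2.27 at Plekhn1 and Klhl17, rests on a window with 29099 called bases and 172 and 132 midpoints.
The highest HA-MacroH2A2 ratios at 12 h were at other places. They were led by the window with Ncr1, a natural killer cell receptor gene, at 2.66 (2.38 to 2.98) on chromosome 7, followed by 2 windows without a protein-coding TSS on chromosome 4 at 2.66 and 2.43. The window with Klhdc7a had 58.5, 96.9 and 98.6 rpm in ES cells at 3, 6 and 12 h and 52.5, 45.6 and 41.9 in MEFs, so that its ratio went up from 1.11 to 2.35. The window with Mocos (a molybdenum cofactor enzyme) and Fhod3 (a formin) had 58.3, 133 and 135 rpm in ES cells and 51.6, 57.6 and 58.1 in MEFs, and its ratio went from 1.13 to 2.33. The Klhdc7a and Mocos windows thus gained HA-MacroH2A2 in ES cells after 3 h, mostly by 6 h, against the course of the median selected region. Since they were picked for a high ratio at 12 h, this can follow from the choice itself. Not all of the 10 highest did so, as HA-MacroH2A2 in ES cells fell from 3 to 12 h in the window with Zfp808.

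Counted over all selected regions, 275 reached 1.5 fold in HA-MacroH2A2 at both 3 and 12 h, 401 at 3 h only, 54 at 12 h only and 213 at neither time. Of the 676 selected regions past the fold at 3 h, 59.3% were thus below it at 12 h, against 74.1% of the 3817 eligible regions past it at 3 h, so that this loss was not particular to the selected ones. The 54 late regions had a median HA-H3.3 log2 level at 6 h of 0.56 and a protein-coding TSS in 57.4%, against 1.68 and 85.5% in the 401 early ones. The 213 regions past the fold at neither time were the most GC-rich, with a median of 50.1%, and had a higher MEF level of anti-MacroH2A2 (47.5 rpm).
In 7 selected regions the HA-MacroH2A2 ratio at 12 h lay below 1 beyond counting error, against 36.1% of all eligible regions, so that the HA tag and the MacroH2A2 antibody gave opposite orders there. The lowest was the window with Setd3 (an actin histidine methyltransferase) and Ccnk (cyclin K) on chromosome 12. It had 117 rpm of anti-MacroH2A2 in ES cells against 73.8 in MEFs, but 96.2, 62.0 and 52.3 rpm of HA-MacroH2A2 in ES cells against 78.6, 77.0 and 73.4 in MEFs, a ratio of 1.22 at 3 h that had gone to 0.713 (0.657 to 0.773) at 12 h. Others of the 7 held Plxnd1 (0.882) and Notch1 with Sec16a (0.919), whereas the ratio of 0.974 (0.912 to 1.04) in the window with Chd5 was not below 1 beyond counting error.

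Of the 20361 protein-coding genes with their TSS in an eligible region, 2614 (12.8%) had it in a selected one. By symbol, the genes of the proteasome (Psm, 11 of 51, 21.6%) and of the mitochondrial ribosome (Mrpl and Mrps, 15 of 76, 19.7%) had shares above 12.8%. The genes of the cytosolic ribosome (Rpl and Rps, 23 of 138, 16.7%) and the zinc finger genes (Zfp, 58 of 350, 16.6%) were above it by less. The Nduf genes of respiratory complex I (4 of 38, 10.5%) and the solute carriers (Slc, 37 of 351, 10.5%) were near it. Some symbols are not of the family they are counted with, such as Rps6kc1, a kinase gene, and Psmc3ip, a recombination gene. By medians the Rpl and Rps genes were ordinary. Their log2 ratio was 0.25 for anti-MacroH2A2 and 0.23 for HA-MacroH2A2 at 12 h, against 0.25 and 0.25 over all genes.
Tandem families of restricted expression were rare among the selected regions. Olfactory receptors (Olfr) had 10 of 1104 genes there, 0.906%, vomeronasal receptors (Vmn) 6 of 255, 2.35%, and protocadherins (Pcdh) 1 of 34, 2.94%. The 3 of 100 symbols starting with Krt were Krtcap2, Krtcap3 and Krtdap, which are not keratins. None of 40 Hox genes and none of 64 Hist1 and Hist2 histone genes lay in a selected region. The HA-MacroH2A2 ratio of several of these families was nonetheless high at 12 h. The median log2 ratio was then 0.40 for Olfr, 0.44 for Vmn, 0.66 for Pcdh and 0.42 for Hist1 and Hist2 genes, above the 0.25 of all genes, but 0.06 for Hox genes and -0.20 for symbols starting with Krt. At 3 h the values were 0.28, 0.36, 0.52, 0.62, -0.15 and -0.44 in the same order, against 0.32 for all genes. Genes of a cluster share regions, and these counts are therefore not independent.
Of the 5 lists of lineage genes, 3 had no gene in a selected region, where 12.8% of all genes lay, and the lists are short. Of 39 pluripotency genes in eligible regions 0 were in a selected one, and the nearest below the limit were Trim28 (1.48), Prdm14 (1.40) and Utf1 (1.35), with 1.28 at Pou5f1, which encodes OCT4. The median anti-MacroH2A2 log2 ratio of the 39 was 0.17, against 0.25 over all 20361 genes, and their median HA-MacroH2A2 ratio at 12 h was 0.30 against 0.25. The germline list (0 of 16) and the endoderm and mesoderm list (0 of 19) were the others without a gene there. At a share of 12.8% only a few genes of lists of 16 or 19 would lie there, so that their counts of 0 say little. The pluripotency list is longer, and its 0 of 39 lay below the 12.8% of all genes, a difference that was not tested.
The fibroblast list had 2 of 36 genes (5.56%) in selected regions, Tagln and Pdgfrb, against 12.8% of all genes. Another 2, Dcn and Lum, lay in regions with more MacroH2A2 in MEFs, as did 175 of all 20361 genes. The list as a whole had more HA-MacroH2A2 in MEFs, with a ratio below 1 around 30 of the 36 genes at 3 h and 28 at 12 h. Its median log2 ratio was -0.34 at 3 h and -0.37 at 12 h, against 0.32 and 0.25 over all genes, whereas for anti-MacroH2A2 it was 0.01 against 0.25. Around Tagln anti-MacroH2A2 was 56.5 rpm in ES cells and 36.3 in MEFs, and the HA-MacroH2A2 ratio was 2.33, 1.66 and 1.45 at 3, 6 and 12 h. Around Pdgfrb, the gene of a receptor of platelet-derived growth factor, anti-MacroH2A2 was 75.0 and 49.5 rpm, but the HA-MacroH2A2 ratio was 0.987 (0.886 to 1.10), 1.15 (1.03 to 1.28) and 1.19 (1.10 to 1.29), so that the tag gave little of the difference seen with the antibody. The neural list had 2 of 17 (11.8%), a share near the 12.8% of all genes. Around Tubb3, which encodes a neuronal tubulin, the HA-MacroH2A2 ratio was 1.68, 1.54 and 1.45, and around Nes, which encodes nestin, 1.44, 1.13 and 1.10.

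A protein-coding gene was not needed for membership. Of the 184 selected regions without a protein-coding TSS, 154 overlapped the body of a protein-coding gene and 30 overlapped none. Those within a gene had a median HA-H3.3 log2 level at 6 h of 1.07, against 1.68 in the 759 regions with a TSS, and median HA-MacroH2A2 log2 ratios of 0.83 at 3 h and 0.54 at 12 h, against 0.92 and 0.50. The 30 without any protein-coding gene had 0.49 and 0.62, and an H3.3 level of -0.86, below the median region.
A smaller class of 73 selected regions, including many of these, had HA-H3.3 at 6 h below the median region. Their GC content (41.4%) and HA-MacroH2A2 at 3 h over 12 h in ES cells (-0.05) were those of the ordinary region. Their anti-MacroH2A2 was low in both cell types, at 21.3 rpm in ES cells and 13.2 in MEFs, and 39 of them held fewer than 200 midpoints in ES cells, against 43 of all 943. The HA-MacroH2A2 ratio at 12 h was nonetheless above 1 in 72 of the 73, with a median log2 of 0.61 and 39 (53.4%) past 1.5 fold, against 53% of all eligible regions above 1 and 7.93% past 1.5 fold. Their HA-MacroH2A2 level in ES cells, 33.6, 33.8 and 35.9 rpm at 3, 6 and 12 h, did not exceed the 36.9 rpm of the ES library without Dox, while MEFs had 22.9, 23.4 and 21.9 rpm, and the part of background signal in these ratios was not tested.
Of these 73 regions 13 lay between 18 and 23 Mb of chromosome 12, where the 32 eligible windows had a median anti-MacroH2A2 ratio of 1.45 and a median HA-MacroH2A2 ratio of 1.72 at 3 h and 1.66 at 12 h. In the window there that holds Gm3944, anti-MacroH2A2 was 11.2 rpm in ES cells and 5.44 in MEFs, HA-H3.3 at 6 h was 8.49 rpm, and HA-MacroH2A2 was 37.5, 34.9 and 38.1 rpm in ES cells against 20.1, 17.3 and 19.4 in MEFs. Without Dox the anti-HA signal in ES cells was 29.7 rpm there, below that of the induced ES libraries and above that of the MEF libraries, and its part in these values was not tested. Other regions of the class held members of tandem gene clusters, such as Naip5 and Naip6, Abpa and Abpe, the Klk1b genes, Olfr714 to Olfr716 and zinc finger genes including Zfp458 and Zfp951. These are picked examples and were not counted. Only 37 of the 73 regions had a protein-coding TSS, and some held other genes, such as Haus8 and Myo9b. The authors placed reads that matched several sites at 1 of them at random, and the part of repeated sequence or of copy number in these ratios was not tested.

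The regions were unevenly spread over the chromosomes. Chromosome 17 had the largest share, 75 of 893 eligible regions (8.40%), followed by chromosome 7 with 110 of 1325 (8.30%) and chromosome 11 with 86 of 1181 (7.28%), and chromosome 1 had the smallest, 26 of 1906 (1.36%). Chromosomes 4, 5, 7, 11 and 17 together held 441 of the 943, 46.8%, on 26.9% of the eligible regions. The mean number of protein-coding TSSs per eligible region was 1.15 on chromosome 17, 1.45 on chromosome 7 and 1.38 on chromosome 11. It was 0.635 on chromosome 1 and 0.868 over all eligible regions. Chromosome 5, with a share of 6.20%, had 0.851. The part of gene number in the spread was not tested. The HA-MacroH2A2 ratio at 12 h in the selected regions had median log2 values from 0.41 on chromosome 6 to 0.61 on chromosome 12. The share past 1.5 fold at 12 h ran from 18.4% of 38 selected regions on chromosome 6 to 56.5% of 23 on chromosome 13.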

How the data were processed

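Mouse ChIP-Seq libraries of HA-tagged H3.3, HA-tagged MacroH2A2 and endogenous MacroH2A2 were analysed from the mapped intervals deposited by the authors, who mapped reads to mm9 with Bowtie 1.0, placed each read that matched more than 1 site at a randomly drawn site, and extended the reads. The files give positions only, with intervals of 400 bp for H3.3 and anti-MacroH2A2 and 150 bp for HA-MacroH2A2. The 2 replicates of each anti-MacroH2A2 library were combined by the authors. Genotype and Dox state of the anti-MacroH2A2 cells are given differently in different sources, and only antibody and cell type were used.

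Here interval midpoints were counted in 100 kb windows and divided by the library's total on chromosomes 1 to 19, X and Y (rpm). GC content and sequences came from the NCBIM37 genome, whose chromosome lengths match, and genes from GENCODE vM1, with 1 TSS per gene. A call is a ratio of at least 1.5. Intervals are exact (Clopper-Pearson) at 95%, that of a ratio being conditional on the summed count. Those of shares and medians treat the regions as independent, which adjacent regions are not. Python 3.11.15, numpy 2.4.6, pandas 2.3.3 and scipy 1.17.1 were used. The selection step was also run on simulated counts with 2 fold changes and counting noise only. That check of the code exercised neither the filter by signal without Dox nor ratios near 1.5. Named genes are those of 5 lineage lists in selected regions, families counted by symbol start, and genes in the longest runs (10 tied) and in the 10 regions highest by either ratio. Outside this rule, genes were also named in regions with the lowest HA-MacroH2A2 ratio at 12 h and in the class with low H3.3. Some list genes outside the selected regions were named as well. Members, lists and tests were chosen with earlier results of these data known. The comparison at like ES level, the split by H3.3, the use of all flanking windows, the call times and the printed promoters were chosen after values had been seen. The closing part gives the alternatives: another scaling, distinct intervals, a 2 fold rule or call, shifted windows, other filters, division by the signal without Dox and, added after seeing the data, leaving out chromosome 8.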

Additional observations from a re-analysis of the deposited data

How the results depend on the processing

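The 14 summary values were recomputed under 9 settings. Of 103 recomputed values 60 stayed within 1.5 times (counts) or within the 95% binomial interval of the reported value, and 2 changed sign: the log2 of 3 h over 12 h in MEFs, -0.01 as reported, was 0.022 with each library divided by its median region and 0.00196 with distinct intervals, so that no direction can be read from it. The binomial intervals treat the regions as independent, so that staying within them only marks the size of a change. No paired analysis was run, since each condition has 1 library.
With median scaling 1155 regions were selected in place of 943. Their shares past 1.5 fold were 78.6%, 45.5% and 42.9% at 3, 6 and 12 h, the median HA-MacroH2A2 log2 ratios 0.99, 0.56 and 0.55, 3 h over 12 h in ES cells 0.47, HA-H3.3 0.92 and 1.52, the no-Dox level 0.22 and GC 47.8%. With distinct intervals, the shares at 6 and 12 h were 42.8% and 42.3% and the ratios 0.54 and 0.55. With a 2 fold rule only 17 regions were left, with shares of 82.4%, 58.8% and 58.8%, ratios of 1.09, 0.68 and 0.61, 3 h over 12 h of 0.24, HA-H3.3 of 1.29 and 1.73, a no-Dox level of 0.34, a protein-coding TSS in 76.5% and GC of 51.4%. With windows shifted by 50 kb the ratio at 6 h was 0.54. With the top 5% by no-Dox signal discarded, 632 regions were left, so that many of the 943 lay among the windows with the most signal without Dox. In the regions left the share at 12 h was 38.3%, the ratio 0.53, HA-H3.3 0.82 and 1.39, the no-Dox level 0.18, a protein-coding TSS in 75.6% and GC 46.9%. Division by the no-Dox level gave HA-H3.3 of 0.70 and 1.30. A 2 fold call left 39.9%, 0.848% and 1.17% at 3, 6 and 12 h, against 7.42%, 0.375% and 0.631% of all eligible regions. Leaving out chromosome 8, or requiring 100 midpoints, moved no value beyond its interval.
Depth limits single promoters, where few midpoints were counted, and the selected regions with low counts.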
